A study of Mus musculus with 157 samples.

Results

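Mouse B cells that received the ATM inhibitor KU55933 before etoposide (LPS+ET+KU) were compared with B cells that received etoposide alone (LPS+ET) for the mRNAs carried in heavy polysomes. The libraries were chosen by their labels and fraction numbers: 48 of the 157 libraries of the series came from fractions 11 to 16 of these treatments, 24 of each. They belong to 8 sucrose gradients, 4 per treatment. The level of a gene in a gradient is the mean of its 6 heavy polysome libraries in counts per 1000000 (CPM), where each library is scaled to its own total. A level is therefore a gene's share of the counts in heavy polysomes and not an amount of mRNA, and a higher share of cells of one type cannot be told apart from more RNA per cell.

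A ribosome that has finished a round of translation leaves the mRNA, and an mRNA that is initiated often carries many ribosomes at once and sediments deep into a sucrose gradient as a heavy polysome. Etoposide holds topoisomerase II in its cleaved complex with DNA, which yields double-strand breaks. The kinase ATM is activated at these breaks and phosphorylates many proteins, among them p53, which switches on genes for cell cycle arrest, repair and death, and components of the NF-kB pathway.

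All cells were splenic B cells of C57BL/6Babr mice aged 8 to 12 weeks, cultured with lipopolysaccharide (LPS) at 10 µg/ml. The LPS+ET cells had 48 h of LPS, with etoposide at 20 µM for 4 h. The LPS+ET+KU cells had 47 h of LPS, then KU55933 at 10 µM for 1 h, then etoposide at the same dose for 4 h. Both groups shared the LPS and the etoposide, and no group had the inhibitor without etoposide, so its own effect and its effect on the etoposide response cannot be told apart. The remaining group had LPS for 48 h with neither agent (LPS, 24 heavy polysome libraries from 4 gradients), and its levels are given beside the others. Every culture had cycloheximide at 100 µg/ml for 3 min before lysis. Gradients are named by treatment and by a tag of the column names, LUL15, LUL16, LUL17 or LUL18. The labels do not say what the tag stands for, and it is termed a pool here. Each pool held 1 gradient of every treatment. Where 4 values follow each other, they are in this order of pools.

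The 48 heavy polysome libraries held 33476 to 4170688 counts with a median of 854605. The LPS+ET gradient of LUL16 was the shallowest, with 1948211 counts in heavy polysomes against 8789663 in the deepest gradient, and it held 4 of the 6 libraries under 100000 counts. The B cell label was checked against 10 marker genes, whose summed level was 9280 to 10900 CPM in LPS+ET against 9570 to 12600 CPM in LPS+ET+KU. Cd74 and Cd79b were abundant, while Pax5, a defining transcription factor of B cells, reached no more than 3.05 CPM. The summed T cell markers stood at 109 to 138 CPM in 6 of the 8 gradients, at 224 CPM in LPS+ET of LUL16 and at 370 CPM in LPS+ET+KU of LUL16. Nearly all of that sum was the kinase gene Lck, while the T cell receptor subunit Cd3e stayed at or below 0.21 CPM in these gradients. Markers of natural killer cells, red cells and platelets summed to at most 3.35 CPM. The part of the Lck level of the LUL16 gradients in the results was not tested.

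After the inhibitor, mRNAs of 8 of 29 interferon-response genes tested, the chemokine receptor genes Ccrl2 and Ccr7 and the stress-induced transcription factor Atf3 were higher in heavy polysomes, and a smaller set that included Ppp1r13l, Notch3, Egr1 and the plasma cell marker Sdc1 was lower. Of 9417 genes tested with limma on log2(CPM + 1), with pool as a block, 162 passed 0.01 after Benjamini-Hochberg adjustment and are termed called, which is 1.72% of the genes. Of these, 111 were higher (1.18%) and 51 lower (0.542%) with the inhibitor. All differences are on the log2(CPM + 1) scale, LPS+ET+KU minus LPS+ET, with the standard error (SE) of the fit. The two-sided adjusted p rests on the spread between gradients that remains after treatment and pool are fitted, with the LPS gradients included. The study describes the gradients of a treatment as biological replicates. The median absolute difference of the called genes was 1.07, and 61 rose by more than 1 while 32 fell below −1. Each called gene moved the same way in all 4 pools, as did 3316 of all tested genes (35.2%). The 4 values of one group lay wholly apart from the 4 of the other for 126 of the 162, and for 651 of all tested genes (6.91%). Of all tested genes 4.96% lay apart with the inhibitor higher and 1.95% with it lower, and 8.11% passed 0.05.

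**Figure D1:**
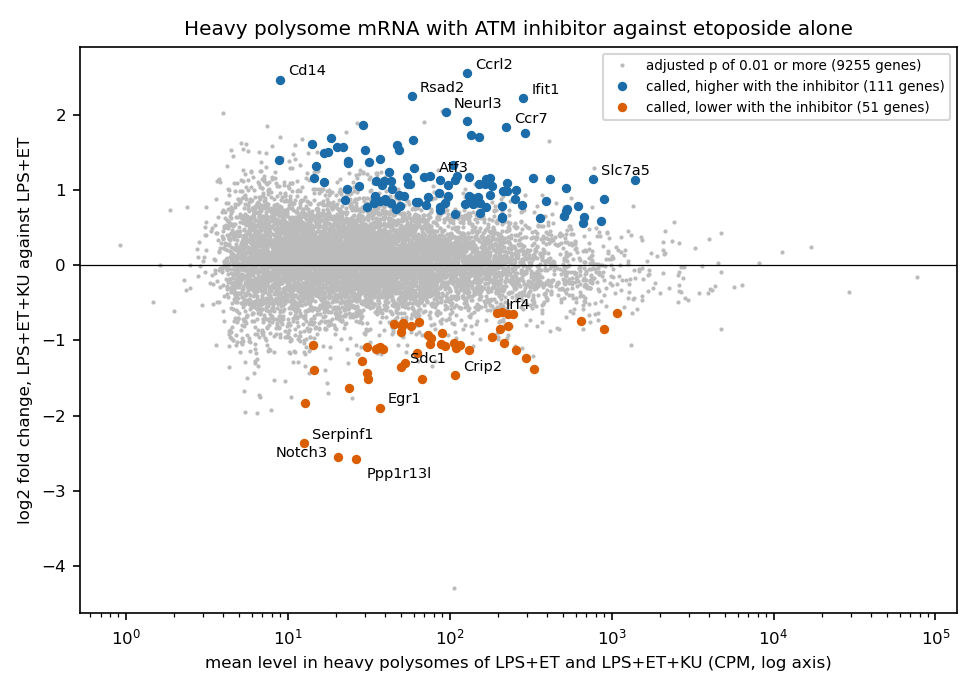
The plot of all tested genes shows the log2 difference, LPS+ET+KU minus LPS+ET, on the y axis against the mean level in CPM on a log x axis, with 1 point per gene and the 162 called genes in colour. The differences of called genes run from −2.58 to 2.56, around a median over all tested genes of 0.06, and the uncalled point at −4.29 is Cdh23.

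The split into higher and lower depended on the scaling and the tool. TMM factors gave 57 higher and 59 lower, edgeR on summed counts with the block 193 and 179, edgeR without the block 29 and 36, DESeq2 372 and 429, and medians over fractions 37 and 10. Without the pool as a block 17 genes were called, 13 higher and 4 lower. Leaving out the LPS+ET gradient of LUL15, LUL17 or LUL18 left 14, 16 and 12 calls, and leaving out the LPS+ET+KU gradient of these pools left 20, 12 and 10, with at most 1 of those calls lower. Without the LUL16 gradients it was 214 for LPS+ET and 112 for LPS+ET+KU.

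Interferon-response genes encode antiviral effectors and the sensors and signal transducers that induce them, and many carry in their promoters the interferon-stimulated response element (ISRE) that STAT and IRF factors bind. The promoter windows below are shown because their genes are among the interferon-response genes that rose. They come from the RefSeq promoter table (build GRCm38.p6, 250 bases before to 50 after each gene's start), 5′ to 3′ on the strand of the gene, with 25 bases on each side of the element. Capitals mark 1 match per window to the letters GAAANNGAAA, read on either strand, and the Ifit1 window holds a further match, left in lower case, from 104 to 95 bases before the gene's start.
Rsad2 (chr12:26456538-26456597, minus strand): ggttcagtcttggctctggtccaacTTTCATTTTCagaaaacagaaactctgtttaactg
Ifit1 (chr19:34640779-34640838, plus strand): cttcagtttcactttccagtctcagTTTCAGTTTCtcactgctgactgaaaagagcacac
Ifit3 (chr19:34583382-34583441, plus strand): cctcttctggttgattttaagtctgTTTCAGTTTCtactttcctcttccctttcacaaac
Gbp2 (chr3:142620579-142620638, plus strand): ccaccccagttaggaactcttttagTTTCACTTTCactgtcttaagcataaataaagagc

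The capitals begin 120 bases before the start of Rsad2, 85 before that of Ifit1, 122 before that of Ifit3 and 59 before that of Gbp2. The same letters stood in the windows of 12 of the 84 called higher genes that have an entry, in 0 of the 44 called lower genes and in 1079 of all 27025 genes of the table (3.99%). Entries were found for 7342 of the 9417 tested genes and for fewer than 80% of the higher genes, so a comparison of these shares is void. A match describes the sequence only.

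Of 29 interferon-response genes tested, 8 rose and 0 fell at 0.01, beside 1.18% and 0.542% of all tested genes. Past 0.05 there were 16 higher, where 5.61% of all genes were, and 0 lower. The list's median difference was 0.78, beside 0.06 over all genes, with 24 above 0 and 5 below. The summed level of the list was 2460 to 2780 CPM in LPS+ET against 3690 to 4390 CPM in LPS+ET+KU, without overlap, and 2240 to 2630 CPM in LPS. The members of this list and of those that follow were chosen with earlier results of these data known. Their counts and medians beside those of all genes are therefore descriptions and no independent support.

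Rsad2, which encodes the antiviral enzyme viperin, was counted on chromosome 12 at 26442753 to 26456452 (minus strand). It stood at 23.9, 13.8, 20.1 and 18.4 CPM in LPS+ET against 97.0, 54.1, 122.7 and 116 CPM in LPS+ET+KU, a difference of 2.25 (SE 0.17, adjusted p 0.000152). Each inhibitor value was above each etoposide value, and the LPS mean was 21.2 CPM.

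The IFIT proteins bind viral RNA. Ifit1 stood at 99.1, 123, 93.6 and 70.9 CPM in LPS+ET against 583, 246, 548.5 and 509 CPM in LPS+ET+KU, a difference of 2.22 (SE 0.24, adjusted p 0.00118). The groups did not overlap, and the LUL16 gradient was the lowest of the inhibitor group. Ifit2 rose from 17.1, 9.66, 11.6 and 8.75 CPM to 56.2, 25.03, 57.3 and 47.0 CPM (difference 1.87, SE 0.21, adjusted p 0.00101). Ifit3 differed by 1.5 (adjusted p 0.00394), with 2.94 to 17.2 CPM in LPS+ET against 12.2 to 41.2 CPM in LPS+ET+KU, so its groups overlapped. Tags of the Ifit genes are uncertain to the extent that near-identical copies share reads.

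Oasl1, a member of the oligoadenylate synthetase family without the enzyme activity, stood at 63.0, 109.7, 23.4 and 38.8 CPM in LPS+ET against 233, 201, 139 and 213 CPM in LPS+ET+KU (difference 1.92, SE 0.24, adjusted p 0.00231). The groups did not overlap, and the LPS mean was 93.1 CPM. Gbp2, an interferon-induced GTPase, rose without overlap, at 113 to 186 CPM in LPS+ET against 253 to 300 CPM in LPS+ET+KU (difference 0.99, adjusted p 0.00292). Parp14, an ADP-ribosyltransferase, differed by 1.14 (adjusted p 0.00359), and Herc6, an ISG15 ligase family member, by 0.92 (adjusted p 0.0082).

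Members that passed 0.05 alone included Mx2 (1.17, adjusted p 0.0106), Ifih1 (0.83, adjusted p 0.0123), Stat2 (0.83, adjusted p 0.0168) and Isg15 (0.80, adjusted p 0.0375). The antiviral membrane protein gene Bst2 differed by −0.11 (adjusted p 0.753). The regulator gene Irf7 differed by 0.78 (adjusted p 0.078), with 22 to 38.9 CPM in LPS+ET against 23.5 to 82.4 CPM in LPS+ET+KU.

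Cxcl10, an interferon-induced chemokine, was among 8 members of the list that failed the filter on low values and had no test. Its levels were 2.42, 1.78, 1.59 and 1.93 CPM in LPS+ET against 42.1, 4.75, 57.4 and 41.6 CPM in LPS+ET+KU, with 1.40 to 2.27 CPM in LPS. All 4 inhibitor values lay above the etoposide values, and the LUL16 gradient, at 4.75 CPM, was far below the rest of its group. Leaving out the LPS+ET gradient of LUL15, LUL17 or LUL18 left 3, 4 and 3 interferon-response calls, leaving out the LPS+ET+KU gradient of these pools left 3, 1 and 1, and leaving out LUL16 gave 9 for LPS+ET and 11 for LPS+ET+KU. It was 2 without the block and 3 with edgeR without the block, and none of the leave-outs gave a lower call. At 0.01 DESeq2 gave 9 higher and 1 lower with a median of 0.59, and edgeR with the block 6 higher and 0 lower with a median of 0.63. Past 0.05 the lower members numbered 2 with DESeq2, 2 with array weights and 1 with edgeR and the block.

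Cytokines, chemokines and their receptors direct where B cells move and which signals they exchange. Of 23 such genes tested, 3 rose and 0 fell at 0.01, and 6 were higher past 0.05, with 21 of 23 differences above 0 and a median of 0.39. At 0.01 edgeR with the block gave 4 higher and 1 lower, and DESeq2 5 higher and 1 lower. Ccrl2, a receptor that binds the attractant chemerin without signalling, had the largest rise among called genes of at least 10 CPM. It stood at 32.2, 42.9, 38.6 and 29.2 CPM in LPS+ET against 265, 133, 265 and 221 CPM in LPS+ET+KU, a difference of 2.56 (SE 0.21, adjusted p 0.000172). The lowest inhibitor gradient, LUL16, was still above each etoposide gradient, and the LPS mean was 19.4 CPM. The gene (ENSMUSG00000043953) lies on chromosome 9 at 111054835 to 111057270 (minus strand) in GRCm38.

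Ccr7, the receptor that guides lymphocytes to T cell zones, stood at 65.7, 197, 59.4 and 76.3 CPM in LPS+ET against 236, 617, 242 and 286 CPM in LPS+ET+KU (difference 1.84, SE 0.24, adjusted p 0.00237). Both treatments were highest in LUL16, and the groups did not overlap. Ccl5, a chemokine for T cells and monocytes, rose from 18.7, 19.1, 17.5 and 12.5 CPM to 42.2, 33.5, 67.3 and 43.6 CPM (difference 1.38, SE 0.20, adjusted p 0.00321). The cytokine genes Il10 (0.10, adjusted p 0.906) and Tnf (−0.15, adjusted p 0.892) were not called, and both were highest in LPS+ET of LUL16. Leaving out a single gradient other than those of LUL16 left Ccrl2 as the list's 1 call.

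NF-kB is activated by LPS and by DNA breaks and induces its own inhibitors. Of 17 NF-kB subunits, inhibitors and targets tested, 2 rose, 0 fell and 4 were higher past 0.05, and all 17 differences were above 0 with a median of 0.29. Nfkbiz, an inducible nuclear cofactor of NF-kB, stood at 69.0, 96.6, 57.5 and 51.6 CPM in LPS+ET against 171, 169, 159 and 120 CPM in LPS+ET+KU (difference 1.19, SE 0.19, adjusted p 0.00607). Nfkbiz passed 0.01 in 7 of 15 other settings and 1 of 8 leave-outs, and edgeR without the block gave the smallest difference, 0.51 (adjusted p 0.616). Cd83, a surface protein of activated B cells, stood at 111, 96.8, 83.3 and 93.3 CPM in LPS+ET against 175, 180, 172 and 185 CPM in LPS+ET+KU (difference 0.89, SE 0.12, adjusted p 0.00249). Neither gene's groups overlapped, and the Cd83 mean in LPS, 176 CPM, was at the level of the inhibitor group. Nfkbie (1.00, adjusted p 0.0111) and Traf1 (0.73, adjusted p 0.0167) passed 0.05, while the subunits Rela (0.24, adjusted p 0.319) and Nfkb1 (0.25, adjusted p 0.343) did not. The list's calls at 0.01 numbered 0, 2, 0 and 0 when the LPS+ET gradients were left out in the order of pools, and 1, 1, 0 and 0 when those of LPS+ET+KU were.

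Cd14, a co-receptor for LPS that is best known from myeloid cells, stood at 1.74, 0.777, 5.39 and 1.18 CPM in LPS+ET against 13.8, 14.4, 25.01 and 9.68 CPM in LPS+ET+KU (difference 2.47, SE 0.40, adjusted p 0.00588). The groups did not overlap, and the LPS mean was 0.51 CPM. The LPS+ET values rest on 7 to 47 counts per gradient. Without the LPS+ET+KU gradients Cd14 would fail the filter of 5 CPM in at least 4 gradients, so it was tested because it was high there. The other 7 myeloid markers tested were not called at 0.05, among them Lyz2 at 4.39 to 64.9 CPM in LPS+ET against 6.84 to 45.2 CPM in LPS+ET+KU. The call was lost without any single gradient other than that of LUL16 in LPS+ET. The summed level of the list overlapped between LPS+ET, at 62.9 to 178 CPM, and LPS+ET+KU, at 78.6 to 179 CPM.

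Immediate early genes encode transcription factors and phosphatases that are induced within minutes of a stimulus. Of 18 tested, 3 rose and 1 fell at 0.01, 8 were higher and 1 lower past 0.05, and the median difference was 0.58, or 0.20 with edgeR or DESeq2. Atf3, a stress-induced bZIP factor, stood at 52.4, 45.6, 43.1 and 42.4 CPM in LPS+ET against 122, 88.9, 106 and 108 CPM in LPS+ET+KU (difference 1.19, SE 0.13, adjusted p 0.000993). Its groups were well apart, and LPS was at 40.7 CPM. Fosl2, an AP-1 subunit, rose from 12.7, 15.3, 14.2 and 8.96 CPM to 29.8, 43.5, 32.5 and 33.2 CPM (difference 1.39, SE 0.24, adjusted p 0.00738), with an LPS mean of 1.36 CPM. Ier2, a nuclear immediate early protein, differed by 0.83 (adjusted p 0.00738).

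Egr1, a zinc finger factor induced by growth factor and antigen receptor signals, moved the other way. It stood at 73.7, 63.9, 53.1 and 42.4 CPM in LPS+ET, at 21.6, 21.1, 12.4 and 7.89 CPM in LPS+ET+KU and at a mean of 24.8 CPM in LPS (difference −1.89, SE 0.24, adjusted p 0.00231). The lowest etoposide value was above the highest inhibitor value. The AP-1 subunit Junb (0.78, adjusted p 0.0135) passed 0.05, Fos (0.41, adjusted p 0.658) and Myc (−0.15, adjusted p 0.801) did not. The list's calls at 0.01 numbered 1, 5, 1 and 0 when the LPS+ET gradients were left out in the order of pools, and 1, 2, 0 and 0 when those of LPS+ET+KU were.

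The integrated stress response lowers general translation initiation while it raises translation of the Atf4 mRNA, and the ATF4 protein then induces genes of amino acid uptake and synthesis through C/EBP-ATF response elements (CARE). The windows below, from the same RefSeq table, are shown because these members of the list were higher past 0.05 and hold the letters TGATGNAA, in capitals, on either strand.
Trib3 (chr2:152344014-152344071, minus strand): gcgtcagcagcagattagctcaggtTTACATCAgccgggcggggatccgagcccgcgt
Asns (chr6:7693200-7693257, minus strand): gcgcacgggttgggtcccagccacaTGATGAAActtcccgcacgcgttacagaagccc
Aars (chr8:111033705-111033762, plus strand): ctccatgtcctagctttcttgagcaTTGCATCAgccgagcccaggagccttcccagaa

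The letters stood in the windows of 7 of the 19 list members with an entry and of 1219 of the 27025 genes of the table (4.51%). They stood in those of 4 of the 84 called higher and 3 of the 44 called lower genes with an entry. Entries were missing for some genes, so a comparison of these shares is void here as well. They lie 23 to 16 bases before the start of Asns, 112 to 105 before that of Aars, and 14 to 21 bases into the transcript of Trib3.

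Of 23 genes of this response tested, Slc7a5 alone rose at 0.01 and 15 were higher past 0.05, where 5.61% of all tested genes were, with 0 lower. The median was 0.78, and 22 of 23 differences were above 0. The number higher at 0.01 was 8 with edgeR and the block, 9 with DESeq2 and 19 with array weights, and the median was 0.53, 0.51 and 0.88 in that order, while edgeR without the block gave 3 and a median of 0.37. Slc7a5, the light chain of a leucine transporter, stood at 498, 601, 425 and 345 CPM in LPS+ET against 947, 1604, 932 and 761 CPM in LPS+ET+KU (difference 1.15, SE 0.13, adjusted p 0.00101). The groups did not overlap, LUL16 was the highest gradient of both, and the LPS mean was 603 CPM.

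The LUL16 gradient of LPS+ET stood above the other etoposide gradients for several members. Atf4 was at 360.0, 840, 362 and 305 CPM in LPS+ET against 856, 1580, 1200 and 753 CPM in LPS+ET+KU (difference 1.30, adjusted p 0.0105). Ppp1r15a, a phosphatase subunit that reverses the response, was at 19.6, 85.2, 15.3 and 18.9 CPM in LPS+ET against 130.0, 106, 75.8 and 104 CPM in LPS+ET+KU (difference 1.90, adjusted p 0.0122). Trib3, a pseudokinase that binds ATF4, was at 5.28, 24.7, 7.05 and 6.91 CPM in LPS+ET against 26.7, 92.5, 29.4 and 23.5 CPM in LPS+ET+KU (difference 1.89, adjusted p 0.0152). In each case the LUL16 value of LPS+ET fell within the range of the inhibitor values, and the other etoposide values lay below it. Other members past 0.05 were the transcription factor genes Ddit3 (1.21, adjusted p 0.0283) and Atf5 (1.27, adjusted p 0.0141) and Asns, the asparagine synthetase (0.86, adjusted p 0.0294). Without the LPS+ET gradient of LUL16, 10 members were called at 0.01. The number higher past 0.05 was 5, 16, 4 and 1 when the LPS+ET gradients were left out in the order of pools, and 7, 11, 9 and 10 when those of LPS+ET+KU were.

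A further set of large rises belonged to none of these lists. Neurl3, a ubiquitin ligase gene, stood at 24.96, 54.6, 32.4 and 34.1 CPM in LPS+ET against 94.0, 203, 146 and 169 CPM in LPS+ET+KU (difference 2.04, SE 0.21, adjusted p 0.000835). Dusp4, a phosphatase that inactivates MAP kinases, stood at 54.0, 83.3, 58.9 and 53.2 CPM in LPS+ET against 205, 152, 260 and 219 CPM in LPS+ET+KU (difference 1.73, SE 0.19, adjusted p 0.000858). Ifrd1, a transcriptional coregulator, stood at 59.4, 89.3, 62.6 and 76.0 CPM in LPS+ET against 204, 249, 266 and 217 CPM in LPS+ET+KU (difference 1.70, SE 0.18, adjusted p 0.000835). None of these groups overlapped, and the tags of Dusp4 were counted 2058 bases past the end of its annotated gene.

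**Figure D2:**
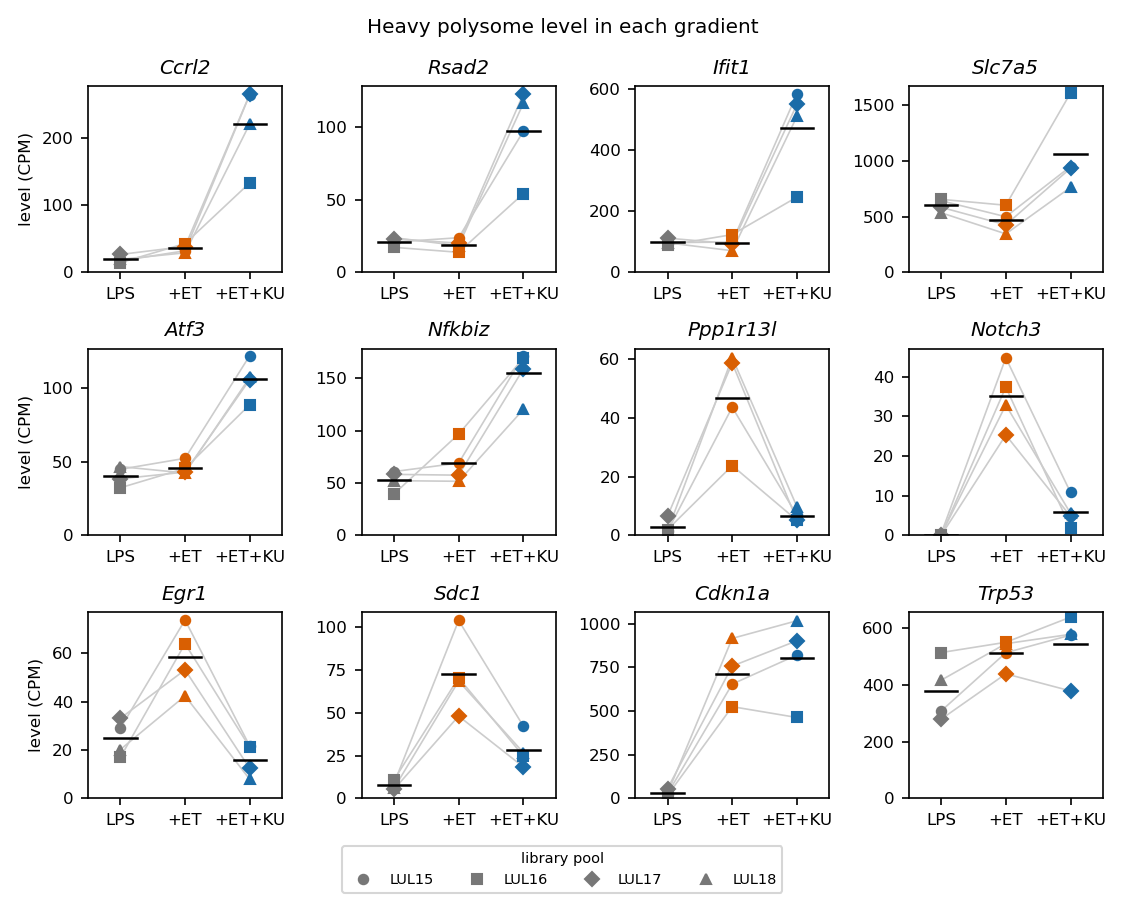
The plot of 12 genes by gradient shows the heavy polysome level in CPM on a linear axis from 0 for the gradients of all 3 treatments, with 1 point per pool, lines that join the gradients of a pool and a bar at the mean. Ccrl2, Rsad2, Ifit1, Slc7a5, Atf3 and Nfkbiz are higher and Ppp1r13l, Notch3, Egr1 and Sdc1 lower in all 4 inhibitor gradients than in any etoposide gradient, while Cdkn1a and Trp53 overlap.

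The largest falls were in mRNAs whose mean level was lower in LPS than in LPS+ET. Ppp1r13l, which encodes the p53 inhibitor iASPP, stood at 43.5, 23.7, 58.6 and 60.4 CPM in LPS+ET against 6.85, 5.13, 5.14 and 9.76 CPM in LPS+ET+KU, with an LPS mean of 2.86 CPM. The difference was −2.58 (SE 0.35, adjusted p 0.00237), and the groups lay far apart. The gene is on chromosome 7 at 19359749 to 19378533 (plus strand).

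Notch3, a receptor of the Notch family, stood at 44.7, 37.4, 25.3 and 32.8 CPM in LPS+ET against 10.8, 1.93, 4.80 and 5.56 CPM in LPS+ET+KU, with an LPS mean of 0.138 CPM (difference −2.55, SE 0.33, adjusted p 0.00231). Serpinf1, which encodes the secreted factor PEDF, stood at 16.5, 9.36, 32.8 and 29.6 CPM in LPS+ET against 2.07, 3.25, 4.63 and 2.62 CPM in LPS+ET+KU, with an LPS mean of 4.65 CPM (difference −2.37, SE 0.31, adjusted p 0.00231). Neither gene's groups overlapped. Arhgap23, a GTPase activating protein gene, stood at 24.1, 12.1, 22.7 and 23.6 CPM in LPS+ET against 4.68, 3.74, 6.65 and 4.83 CPM in LPS+ET+KU (difference −1.83, SE 0.28, adjusted p 0.00469). Without the LPS+ET gradients Notch3, Serpinf1, Arhgap23 and Slc4a11 would fail the filter of 5 CPM in at least 4 gradients, so they were tested because they were high there.

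The next falls had one order of means, with LPS lowest, LPS+ET highest and LPS+ET+KU between them. Slc4a11, a membrane transporter gene, had means of 0.539 CPM in LPS, 35.9 CPM in LPS+ET and, with the inhibitor, 11.9 CPM (difference −1.63, adjusted p 0.00639). Tbxa2r, the thromboxane receptor, had means of 9.43, 99.6 and 35.5 CPM in the same order (difference −1.52, adjusted p 0.00292). Ckmt1, a mitochondrial creatine kinase, had means of 0.387, 45.8 and 17.0 CPM (difference −1.51, adjusted p 0.00932). The order of means held as well for Crip2 and Gcdh, but their single values overlapped between etoposide and inhibitor. Crip2, a LIM domain protein gene, had means of 3.04, 156 and 58.9 CPM (difference −1.46, adjusted p 0.00506). Gcdh, a mitochondrial dehydrogenase of lysine breakdown, had means of 5.47, 45.6 and 16.5 CPM (difference −1.44, adjusted p 0.00723).

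A further gene, Cdh23, a cadherin, was picked out after its values were seen. Its difference was −4.29 (SE 0.71), beyond those of all called genes, and its adjusted p of 0.0123 missed 0.01. Its means were 5.16 CPM in LPS, 204 CPM (SD 184) in LPS+ET and, with the inhibitor, 7.53 CPM. Of the falls named above, none was past 0.01 when the LPS+ET gradient of LUL15, LUL17 or LUL18 or the LPS+ET+KU gradient of LUL17 or LUL18 was left out, since those fits made no lower call.

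Plasma cells arise from activated B cells under the control of Irf4, Prdm1 and Xbp1, and they display syndecan-1, the product of Sdc1. Of 14 genes of plasma cell differentiation tested, 0 rose and 2 fell at 0.01, 2 were higher and 3 lower past 0.05, and the median was −0.16. Sdc1 stood at 104, 70.4, 48.1 and 68.5 CPM in LPS+ET, at 42.2, 24.8, 18.4 and 26.8 CPM in LPS+ET+KU and at a mean of 7.62 CPM in LPS (difference −1.35, SE 0.19, adjusted p 0.0027). Irf4 stood at 200.4, 222.5, 292 and 246 CPM in LPS+ET against 129, 163, 172 and 147 CPM in LPS+ET+KU (difference −0.64, SE 0.11, adjusted p 0.00701). Both genes were lower in every inhibitor gradient than in any etoposide gradient, while the Irf4 mean in LPS, 222.5 CPM, was within the etoposide values. Both calls at 0.01 held without either LUL16 gradient, and 0 members fell when any other single gradient was left out.

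Prdm1, the Blimp-1 repressor, overlapped, with 22.6 to 94.4 CPM in LPS+ET against 6.2 to 77.5 CPM in LPS+ET+KU (difference −0.71, adjusted p 0.281). Bcl6, a repressor that drives the germinal centre programme, was higher past 0.05 by 0.75 (adjusted p 0.0182). Mzb1, a chaperone of antibody secretion, was lower past 0.05 (−0.49, adjusted p 0.0481).

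The p53 targets are genes of arrest, death and repair that p53 binds and activates after DNA damage. Of 34 tested, 0 were called at 0.01 in either direction, and 0 were higher and 5 lower past 0.05, where 2.51% of all tested genes were lower. In all, 27 differences were below 0 and 7 above, with a median of −0.36, beside 0.06 over all genes. The list summed to 4270 to 6910 CPM in LPS+ET against 3830 to 6140 CPM in LPS+ET+KU, while LPS stood at 1240 to 1610 CPM. The ranges overlapped, but within pools the sum was lower with the inhibitor in all 4, at 6240, 4270, 6910 and 6270 CPM against 5740, 3830, 6140 and 5360 CPM, a difference given without a test.

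Cdkn1a, the p21 inhibitor of cyclin-dependent kinases, stood at 654, 525, 757 and 915 CPM in LPS+ET against 820.1, 463, 902 and 1016 CPM in LPS+ET+KU, with an LPS mean of 32.4 CPM. The difference of 0.14 had a 95% interval of −0.26 to 0.53 (adjusted p 0.692). Mdm2, the ubiquitin ligase of p53, stood at 386, 250, 455 and 400 CPM in LPS+ET against 261, 112, 281 and 238 CPM in LPS+ET+KU, with 55.5 to 81.9 CPM in LPS (difference −0.79, adjusted p 0.0226). Within each pool the inhibitor value of Mdm2 was the lower, though the groups overlapped.

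The other members lower past 0.05 were Ddit4l, an mTORC1 inhibitor (−1.40, adjusted p 0.0375), the cyclin Ccng1 (−0.81, adjusted p 0.0497), the ribosomal protein paralogue Rps27l (−0.56, adjusted p 0.0398) and the phosphatase Ppm1d (−0.53, adjusted p 0.034). Ccng1 stood at 586, 269, 429 and 436 CPM in LPS+ET against 422, 103, 276 and 259 CPM in LPS+ET+KU. Gadd45a, a growth arrest gene, was at 1.22 to 9.68 CPM in LPS+ET against 4.61 to 11.8 CPM in LPS+ET+KU, too low and too variable for a difference to be seen (0.63, 95% interval −0.34 to 1.6, adjusted p 0.41). Tap1, the peptide transporter that loads MHC class I, differed by 0.09. At 0.01 edgeR with the block called 4 members lower and DESeq2 6, and past 0.05 there were 0, 4, 0 and 0 when the LPS+ET gradients were left out in the order of pools, and 0, 1, 1 and 1 when those of LPS+ET+KU were.

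Of 20 DNA damage kinases, sensors and mediators, 0 were called at 0.01 and 1 was higher past 0.05, with a median of 0.13. That gene was Atm, the target of the inhibitor, at 73.9, 42.6, 51.8 and 62.2 CPM in LPS+ET against 150, 187, 68.4 and 82.4 CPM in LPS+ET+KU (difference 0.98, adjusted p 0.0345). The inhibitor acts on the kinase protein, so this mRNA is no check of the treatment labels. Parp1, which marks breaks with ADP-ribose, differed by 0.18. Of 18 genes of double-strand break repair 0 were called at 0.01 or 0.05, and the median was 0.13, below 0 with edgeR and DESeq2. Brca1 (−0.29, adjusted p 0.646) and Fancd2 (0.15, adjusted p 0.707), both of homologous recombination and crosslink repair, were not called.

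The G2 and M phase list holds mitotic cyclins, kinases and kinesins. Of 36 tested, 0 were called at 0.01, and 0 were higher and 2 lower past 0.05, Birc5 (−0.63) and Kif20a (−0.75), with 29 of 36 differences below 0 and a median of −0.31. At 0.01 there were 2 lower with edgeR and the block, 5 with DESeq2, 1 with TMM factors and 15 with array weights, and the medians were −0.56, −0.58, −0.39 and −0.54 in that order. The list summed to 7090 to 10600 CPM in LPS+ET against 5300, 10100, 4230 and 3980 CPM in LPS+ET+KU, while LPS stood at 13100 to 17200 CPM. Each inhibitor gradient except that of LUL16 was thus below every etoposide gradient.

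Top2a, the topoisomerase that etoposide traps, had the same pattern, at 7157, 5249, 4580 and 6555 CPM in LPS+ET against 3018, 6666, 2486 and 2164 CPM in LPS+ET+KU (difference −0.85). Bub3, a spindle checkpoint gene, differed by 0.00. Without the LPS+ET+KU gradient of LUL16, 5 members fell at 0.01 and 11 were lower past 0.05, with a median of −0.56. Without the LPS+ET gradient of LUL16 the numbers were 3 lower at 0.01 and 10 past 0.05, and without any other single gradient 0 passed 0.05. Of 33 S phase genes 0 were called at 0.01 and 2 were lower past 0.05, Pola1 and Rrm2, and the median was −0.04, or −0.24 without LPS+ET+KU of LUL16. For these genes edgeR with the block gave 3 lower at 0.01 and a median of −0.30, DESeq2 4 and −0.31, and array weights 7 and −0.21. Among the most abundant of them, Mcm7, of the replicative helicase, differed by −0.34 and Lig1, the replicative ligase, by −0.04.

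Several lists of the translation machinery and of metabolism had no call at 0.01. Of 52 cytosolic ribosomal protein genes tested 0 were called, 44 differences were below 0 and the median was −0.18, but without the fraction libraries under 100000 counts the median was 0.05 with 33 above 0. Rps20 (−0.27) and Rpl4 (−0.17) were the most abundant of them. Rps27l stands in this list too and was its 1 member past 0.05. The 12 other mRNAs tested with the 5′ terminal oligopyrimidine tract, whose translation mTOR controls, had a median of −0.11, with Eef2, the elongation factor, at −0.31 and Gnb2l1, a ribosomal scaffold, at −0.14.

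All 18 genes of cholesterol synthesis and uptake had differences above 0 with a median of 0.36, and 0 passed 0.05. With edgeR or DESeq2 10 or 11 of the 18 were above 0. Cyp51, a sterol demethylase, differed by 0.36. Of 24 genes of folding and export in the endoplasmic reticulum, Herpud1, a component of protein degradation there, alone was called, and the call was lost without any single gradient other than those of LUL16. Herpud1 in heavy polysomes was past 0.01 in 6 of 15 other settings, and edgeR with the block (adjusted p 0.111), edgeR without it (adjusted p 0.289) and DESeq2 (adjusted p 0.0722) did not call it, while they called 1, 0 and 2 members of the list lower. In the limma fit it rose from 490, 343, 571 and 447 CPM to 755, 852, 843 and 697 CPM (difference 0.78, SE 0.13, adjusted p 0.00639), while the list's median was −0.11 and Xbp1 differed by −0.11 (adjusted p 0.74).

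Neither the BCL2 family of death regulators (7 tested, median −0.08) nor the proteins that bind AU-rich elements (9 tested, median −0.10) had a member past 0.05, and both medians changed sign under other settings. Mcl1 (−0.16) and Bcl2l11 (0.17) of the former and Hnrnpab (−0.16) and Khsrp (−0.35) of the latter were the most abundant. Of 9 B cell marker genes tested 1 was higher past 0.05, and the list's median was 0.28. Cd74, the MHC class II chaperone, differed by 0.03.

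**Figure D3:**
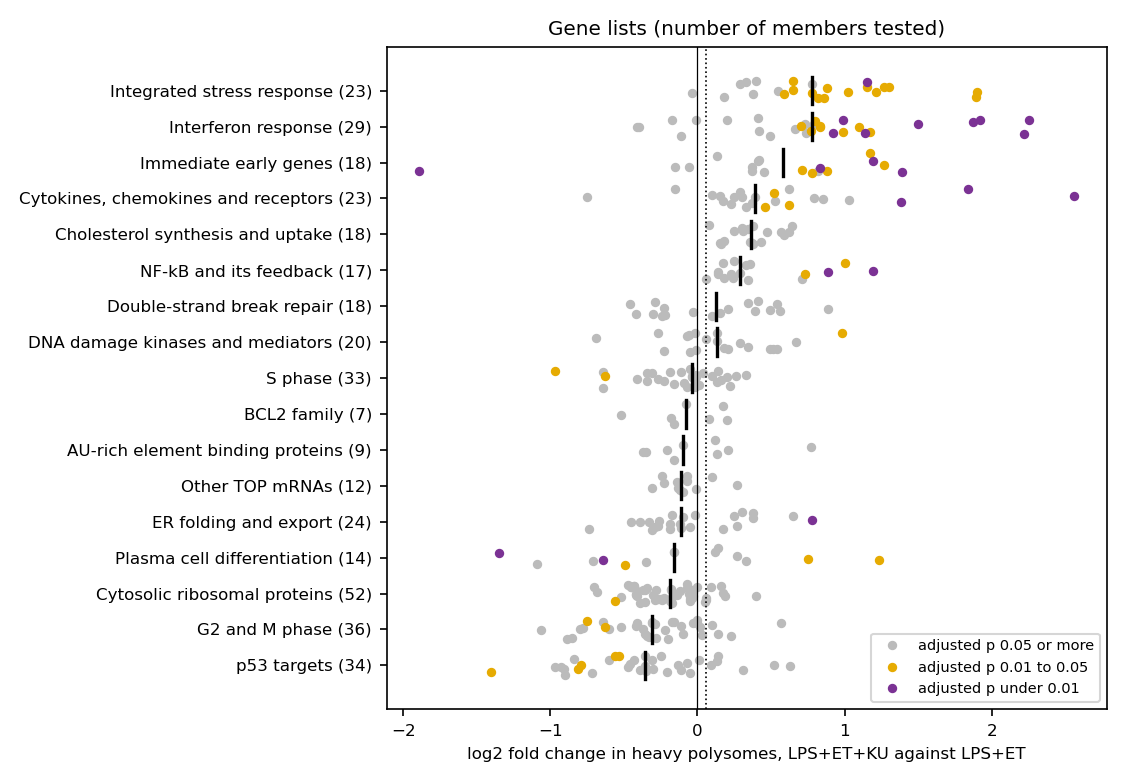
The plot of gene lists shows each tested member as a dot at its log2 difference, LPS+ET+KU minus LPS+ET, coloured by adjusted p, with a black tick at the list's median and a dotted line at the median of all tested genes, 0.06. The interferon-response and integrated stress response lists have the highest medians, both 0.78, and the p53 target list has the lowest, −0.36.

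Trp53, Hif1a and H2-K1 are mRNAs that the study followed across treatments. From polysome profiles it reported significantly less Trp53 mRNA in heavy polysomes with the inhibitor than with etoposide alone. It described the Hif1a profile as restored to that of control cells, and the H2-K1 result as inconclusive. The study started from raw counts, while levels here are CPM averaged over fraction libraries. Trp53, on chromosome 11 at 69580359 to 69591873 (plus strand), stood at 513, 549.9, 439 and 545 CPM in LPS+ET against 575, 639, 379 and 578 CPM in LPS+ET+KU. Its difference was 0.06 with a 95% interval of −0.21 to 0.34 (adjusted p 0.81). Hif1a, the hypoxia-inducible factor, stood at 563, 269.8, 384 and 321 CPM in LPS+ET against 545.5, 389, 375 and 376 CPM in LPS+ET+KU (difference 0.17, 95% interval −0.09 to 0.42, adjusted p 0.401). Both genes' groups overlapped.

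H2-K1, an MHC class I heavy chain whose family members share sequence, stood at 3760, 3989, 3053 and 3258 CPM in LPS+ET against 4383, 5924, 3552 and 4234 CPM in LPS+ET+KU. It was higher in each pool (difference 0.35, 95% interval 0.13 to 0.56, adjusted p 0.0497), past 0.05 and not past 0.01. With edgeR or DESeq2 on summed counts the differences of all 3 genes were below 0, and below the 95% intervals of the limma fit.

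The heavy polysome share of a gene is the part of its summed CPM over fractions 4 to 16 that lay in fractions 11 to 16, and its median over all genes was 51.7 to 55.5% in the LPS+ET gradients and 52.7 to 56.3% in the LPS+ET+KU gradients. The share of Trp53 was 77.5% ± 3.95 (SD, n = 4) in LPS+ET against 77.2% ± 3.36 in LPS+ET+KU, with 68.9% in LPS (difference −0.34 points, two-sided exact permutation p 0.857). It was 1.01 points without the LUL17 gradient of LPS+ET and 1.15 points without that of LPS+ET+KU. The Hif1a heavy polysome share was 67.1% ± 2.65 in LPS+ET against 74.1% ± 4.79 in LPS+ET+KU (difference 7.01 points, exact permutation p 0.0857). It was 64.5, 67.4, 65.8 and 70.6% in LPS+ET against 70.1, 80.1, 70.4 and 75.8% in LPS+ET+KU, higher in 4 of 4 pools, while summed counts as deposited gave −7.24 points.

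The H2-K1 heavy polysome share was 76.6% ± 4.36 in LPS+ET against 73.8% ± 4.47 in LPS+ET+KU (difference −2.89 points, exact permutation p 0.457), lower in 4 of 4 pools. Without the libraries under 100000 counts it was −4.3 points (exact permutation p 0.0286). Sign flips of the 4 pool differences gave an exact p of 1.0 for Trp53 and 0.125 for Hif1a and H2-K1. The smallest p that 4 gradients against 4 allow is 0.0286, and 0.125 is the smallest for 4 pools.

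Whether the inhibitor's effect was particular to heavy polysomes was tested as the difference between its effect there and in monosomes (fractions 4 to 7) or light polysomes (fractions 8 to 10). Against monosomes limma called 0 of 8397 genes, with 741 at an unadjusted p under 0.05. Against light polysomes it called 1 of 8844 (0.0113%), the pseudogene Gm11826, which the rule for named genes leaves out and which was named after its values were seen. Gm11826 stood at 4.38, 3.72, 7.03 and 2.96 CPM in the heavy polysomes of LPS+ET and at 13.1, 11.6, 15.1 and 12.5 CPM in those of LPS+ET+KU. Its effect was 1.39 in heavy and −1.69 in light polysomes, which differed by 3.08 (SE 0.28, adjusted p 0.00508), on 5 to 130 counts per gradient. Between fractions 14 to 16 and 11 to 13 limma called 0 of 8615 genes, with 1328 at an unadjusted p under 0.05.

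Of the 30 named genes that were called, 28 had differences of one sign in all 3 classes, the exceptions being Nfkbiz and Gm11826. Rsad2 differed by 2.19 in monosomes, 1.98 in light and 2.25 in heavy polysomes. Ifit1 differed by 2.28, 2.11 and 2.22 in the same order, and Egr1 by −1.70, −1.74 and −1.89.

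Other genes had point estimates that grew or shrank along the gradient, but the difference between classes was not called for any of those named here. Nfkbiz differed by −0.13 in monosomes, 0.39 in light and 1.19 in heavy polysomes, and heavy minus monosomes was 1.31 (SE 0.30, adjusted p 0.335). Ppp1r13l differed by −1.47, −2.16 and −2.58, and Serpinf1 by −1.0, −1.81 and −2.37. Irf4 had its smallest difference in heavy polysomes, at −0.99, −0.81 and −0.64.

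**Figure D4:**
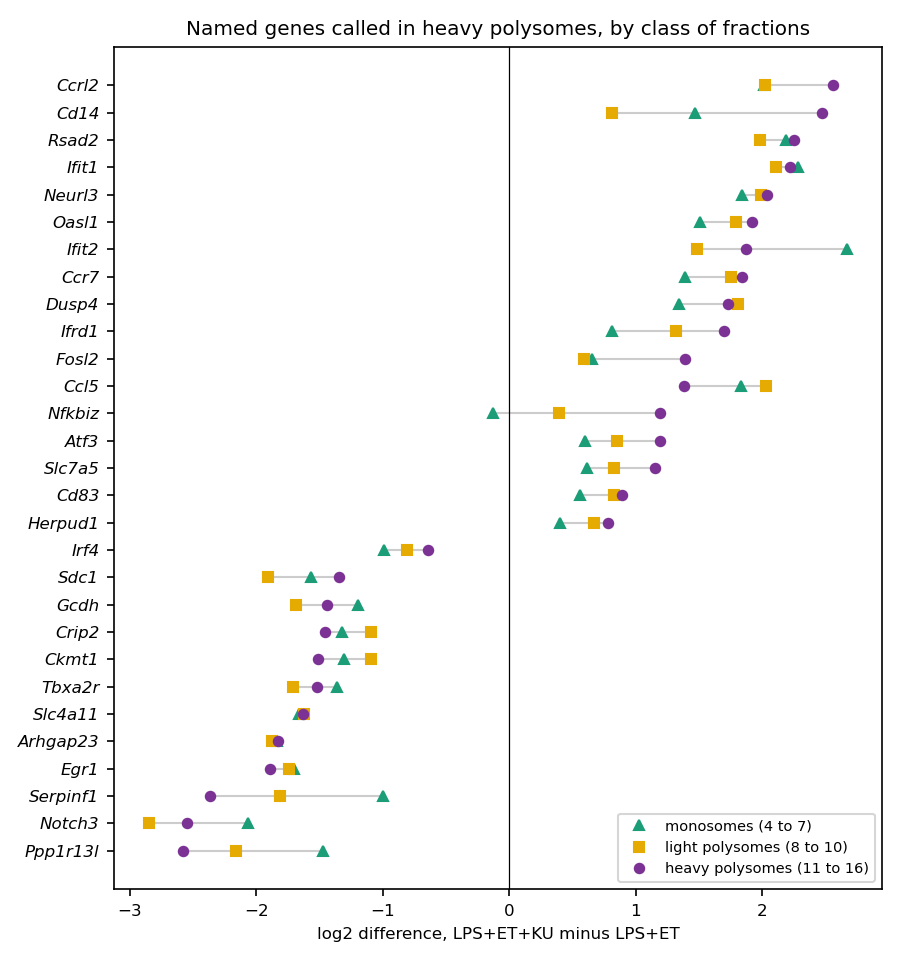
The plot of gradient classes shows, for 29 called named genes, the log2 difference LPS+ET+KU minus LPS+ET in monosomes, light and heavy polysomes. Each gene stays on one side of 0 in every class except Nfkbiz, at −0.13 in monosomes and 1.19 in heavy polysomes.

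Values in single fractions are given here for Ccrl2, Rsad2 and Ppp1r13l. These genes were chosen for large differences in the mean of the heavy polysome fractions. The same direction in those fractions was therefore largely set beforehand and is no support. Ccrl2 was higher with the inhibitor in 4 of 4 pools in each of fractions 4 to 16, and in fraction 13 its mean was 46.8 CPM in LPS+ET against 297 CPM in LPS+ET+KU. Rsad2 was higher in 4 of 4 pools from fraction 5 to 14, with means of 28.4 and 136 CPM in fraction 13, and in 2 of 4 pools in fraction 4, at 12.4 and 16.8 CPM. Ppp1r13l was lower in fraction 14, with means of 83.7 and 13.3 CPM.

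Hif1a did not have one direction along the gradient. In fractions 4, 5 and 6 its level was lower with the inhibitor in 4 of 4 pools, with means of 114 and 57.7 CPM in fraction 4. In fraction 13 the means were 715 and 703 CPM, and in fraction 15 they were 301 and 584 CPM, higher in 4 of 4 pools. These single fraction values are descriptions without a test.

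**Figure D5:**
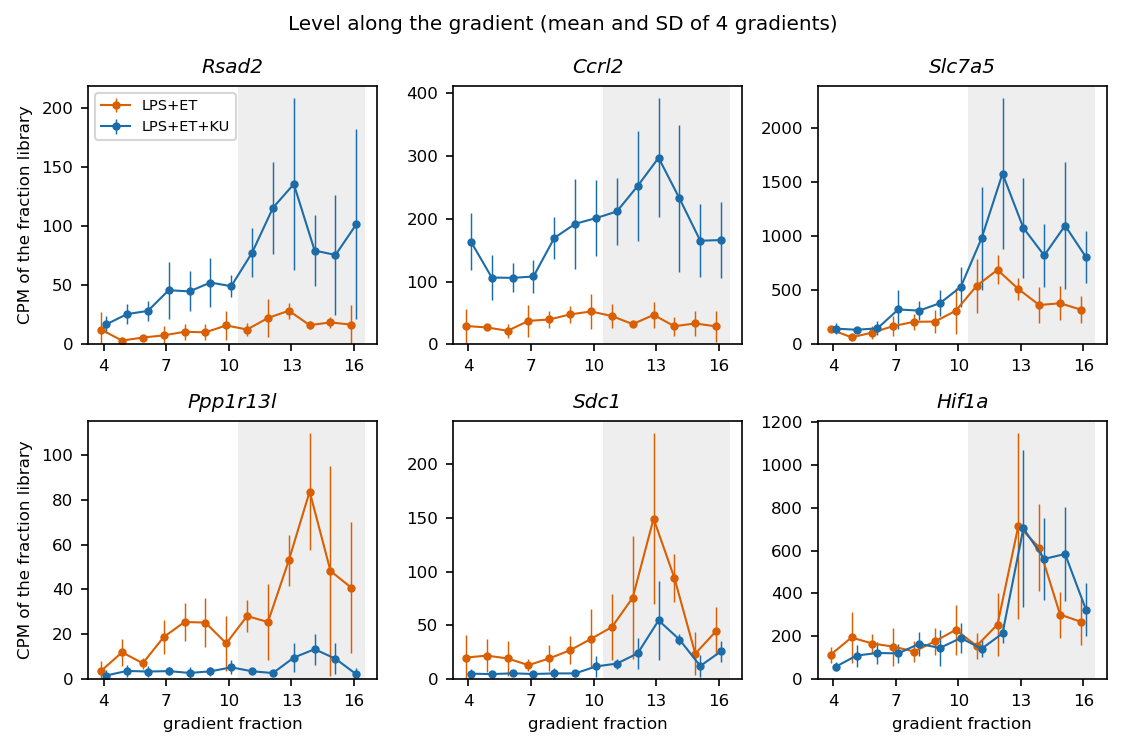
The plot of fractions shows the mean level ± SD of 4 gradients in CPM against fraction number, 4 to 16, for Rsad2, Ccrl2, Slc7a5, Ppp1r13l, Sdc1 and Hif1a in LPS+ET (orange) and LPS+ET+KU (blue), with the heavy polysome fractions in grey and SD bars cut at 0. The LPS+ET+KU line of Ccrl2 lies above the LPS+ET line in every fraction, that of Ppp1r13l lies below it in the heavy polysomes, and the lines of Hif1a part most in fraction 15.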

How the data were processed

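The authors reverse transcribed equal RNA concentrations per fraction for 3′ end sequencing, so fraction totals do not measure mRNA. They used random bases to remove PCR duplicates, trimmed A tracts, aligned to GRCm38 and deposited unnormalized counts per Ensembl gene. The submitters' processing notes name TopHat2 2.0.12, HTSeq and DESeq2 1.6.3 without a role. Deposited coordinates count from 0 and were shifted to 1-based.

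Counts of 19600 genes were scaled here to CPM per library and averaged over fractions 11 to 16. Of the columns, 79 matched a single sample and 78, of LUL16 and LUL18, their treatment and fraction only. Log2(CPM + 1) of 12 gradients was fitted with limma 3.58.1 (trend and robust empirical Bayes), with treatment and pool as terms, after a filter of 5 CPM and 10 counts in at least 4 gradients. Limma on CPM follows the definition of the comparison, and edgeR 4.0.16 and DESeq2 1.42.0 on summed counts were alternatives. Benjamini-Hochberg adjusted p-values cover all genes tested, and the study's threshold of 0.01 was used. Scripts ran in R 4.3.3 and Python 3.11.15 and were tested on simulated data.

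The column names give the LUL tags that are termed pools here, without saying what a tag stands for. Deviations from treatment means correlated at 0.11 to 0.769 within pools (12 of 12 over 0.1) and at −0.47 to 0.279 between pools (8 of 36 over 0.1). Centring on treatment means itself lowers the values between pools where those within pools are above 0. Pairing was not seen for every pool. LPS of LUL16 correlated at 0.11 with LPS+ET of LUL16 and at 0.116 with LPS+ET of LUL15. These correlations were taken over genes, which are no replicates.

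Named genes (chosen by rule) were 5 that the study followed, the 10 largest called rises and falls of at least 10 CPM in either group with one sign in all pools, and per list up to 3 called or the 2 most abundant members. The members and lists were chosen with earlier results of these data known. Further list members, such as Ifit3, Atf4 and Mdm2, were named with their values known and carry no mark in the text. Genes outside the rule and the lists were named after their values were seen, and the text marks where.

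Promoter windows were matched by Ensembl identifier or symbol, and the letters TGACGTCA, a further motif, were found in 549 of 27025 windows (2.03%). One fraction 17 library was not used, and some genes are not reported here, though the counts and medians of lists include them.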

Additional observations from a re-analysis of the deposited data

Results flagged for a closer look

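Each of the following single gradients stood apart from the other 3 of its treatment by Dixon's test, applied to 118 groups of 4, and chance alone flags about 1 in 20 groups. Hif1a was at 546 CPM in LPS+ET+KU of LUL15, against 375 to 389 CPM in the other pools. Ifit1 was at 246 CPM in LPS+ET+KU of LUL16, against 509 to 583 CPM. Arhgap23 was at 12.1 CPM in LPS+ET of LUL16, against 22.7 to 24.1 CPM, and Tbxa2r was at 63.1 CPM in that gradient, against 108 to 115 CPM. Ckmt1 was at 5.03 CPM in LPS+ET+KU of LUL16, against 20.0 to 22.4 CPM. Gnb2l1 was at 763 CPM in LPS+ET+KU of LUL18, against 988 to 1030 CPM. These 6 values among 118 groups are about the number that chance alone flags. Of them, 4 came from gradients of LUL16, the pool with the shallowest LPS+ET gradient and the highest Lck levels, and the part of either was not tested.

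The pseudogene Gm11826 had an inhibitor effect that differed between heavy and light polysomes by 3.08 (limma adjusted p 0.00508), the only such call among 8844 genes.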

How the results depend on the processing

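The number of genes called in heavy polysomes was 162 as reported. It was 764 at a threshold of 0.05, 801 with DESeq2, 1334 with array weights, 372 with edgeR and the pool as replicate block, 65 with edgeR without the block, 47 with medians over fractions, 8 with no filter, 17 with no replicate block, 100 with the 8 compared gradients alone, 284 without libraries under 100000 counts, and 10 to 214 when 1 gradient was left out. TMM factors, other pseudocounts, fractions 11 to 14, the 20 CPM filter and totals without immunoglobulin and mitochondrial genes gave 116 to 217. The comparison of heavy with light polysomes gave 1 call as reported, 2 at 0.05, 2 with a pseudocount of 0.5, 0 with a 20 CPM filter or no filter (at 0.05 they were 70 with the 20 CPM filter and 48 with a pseudocount of 5), and 0 to 1 when 1 gradient was left out. That of fractions 14 to 16 with 11 to 13 gave 1 at 0.05 and 2 with a pseudocount of 5.

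Of the 30 named genes that were called, 0 changed direction under any alternative. Each had one sign in all pools as a called gene, so this was largely set beforehand and is no support. Past 0.01 were 8, 29, 10 and 7 of them when the LPS+ET gradients were left out in the order of pools, and 11, 22, 6 and 5 when those of LPS+ET+KU were. Ccrl2, Rsad2 and Atf3 were past 0.01 in all 15 other settings, and Ccrl2, Rsad2, Ifrd1 and Neurl3 in all 8 leave-outs. Fosl2 was past it in 4 of 15 settings and 1 of 8 leave-outs, and Ckmt1 in 0 of 8 leave-outs.

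Heavy polysome shares changed as follows. The Trp53 heavy polysome share ranged from −2.14 to 1.15 points over leave-outs, the Hif1a heavy polysome share was −7.24 points from counts as deposited, and the H2-K1 heavy polysome share was −4.3 points without shallow libraries.

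Named genes that were not called reversed as follows, in the order DESeq2, edgeR with the block and edgeR without it. Trp53 gave −0.56, −0.54 and −0.66, Hif1a −0.54, −0.52 and −0.51, H2-K1 −0.09, −0.07 and −0.06, Tap1 −0.27, −0.25 and −0.26, Parp1 −0.34, −0.31 and −0.37, Fancd2 −0.16, −0.13 and −0.14, Bub3 −0.42, −0.40 and −0.38 and Cyp51 −0.15, −0.12 and −0.22. Lck gave −0.06 with DESeq2 and −0.03 with edgeR, and Cd74 −0.02 with DESeq2. TMM gave −0.02 for Trp53, −0.08 for Bub3 and −0.05 for Cd74. Array weights gave −0.03 for Trp53, −0.12 for Fancd2, −0.02 for Bub3 and −0.07 for Lck. Fractions 11 to 14 gave −0.06 for Trp53, −0.12 for Hif1a, −0.02 for Fancd2, 0.24 for Brca1, −0.13 for Bub3, −0.05 for Cd74 and −0.08 for Lck. Medians over fractions gave −0.03 for Fancd2, 0.01 for Brca1 and −0.11 for Lck. Totals without immunoglobulin genes gave −0.04 for Bub3. Without shallow libraries the values were −0.19 for Trp53, −0.10 for Hif1a, −0.13 for Tap1, −0.20 for Parp1, −0.26 for Fancd2, 0.04 for Rps20 and 0.01 for Hnrnpab. Leave-outs ranged from −0.02 to 0.14 for Trp53, −0.01 to 0.24 for Cdkn1a, −0.02 to 0.32 for Parp1, −0.12 to 0.34 for Fancd2, −0.69 to 0.05 for Brca1, −0.06 to 0.08 for Bub3, −0.33 to 0.06 for Lig1, 0.0 to 0.08 for Cd74 and −0.2 to 0.32 for Lck. The cause of these changes was not tested.

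Depth limits the low genes, such as Gadd45a on 5 to 118 counts per gradient, and the LUL16 gradient of LPS+ET, with 4 libraries under 100000 counts. With 4 gradients against 4, exact tests of a share cannot go below 0.0286.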

Other observations

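Called genes outside the lists are named here after their values were seen. Cd86, a costimulatory ligand for T cells, had a mean of 28.2 CPM in LPS+ET against 90.3 CPM in LPS+ET+KU (log2 difference 1.66, SE 0.18, limma adjusted p 0.000835). Cd69, an early activation marker that retains lymphocytes in tissue, went from 17.5 to 37.4 CPM (1.05, adjusted p 0.00639), and its LPS mean was 37.8 CPM. Cd180, a Toll-like receptor homologue that modulates the LPS response, fell from 41.0 to 16.5 CPM (−1.28, adjusted p 0.00292), with 96.5 CPM in LPS.

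The survival kinase Pim1 went from 210 to 449.5 CPM (1.15, adjusted p 0.000835) and Pim2 from 880 to 1915 CPM (1.14, adjusted p 0.00237). Gadd45b, an NF-kB and stress-induced gene, went from 109 to 244.5 CPM (1.16, adjusted p 0.000875), with 53.2 CPM in LPS. Crem, a cAMP-responsive bZIP factor, had 56.6 CPM in LPS+ET against 153 CPM in LPS+ET+KU with overlapping values (1.33, adjusted p 0.00237). The interferon-induced GTPase Gbp5 rose from 15.0 to 45.4 CPM (1.53, adjusted p 0.00784). The tubulin gene Tuba1c fell from 479 to 182 CPM (−1.39, adjusted p 0.00239) and Tubb4b, another, from 158 to 74.2 CPM (−1.07, adjusted p 0.00259), and the family was not counted. Serpine2, a protease inhibitor, had means of 13.7 CPM in LPS, 353 CPM in LPS+ET and, with the inhibitor, 160.1 CPM (−1.12, adjusted p 0.00249).

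The heavy polysome share of Nfkbiz was 50.4% in LPS+ET against 68.4% in LPS+ET+KU, higher in 4 of 4 pools. It was picked after the values were seen and was not tested, and heavy minus monosomes was not called for Nfkbiz (limma adjusted p 0.335). The share of Cdkn1a, at 52.1% against 63.0%, was also higher in 4 of 4 pools. Its level was higher with the inhibitor in 0 of 4 pools in monosomes, with means of 391 and 299 CPM. In light polysomes it was likewise higher in 0 of 4, with means of 771 and 519 CPM. Heavy minus light was 0.73 and not called (limma adjusted p 0.282). The share of Serpinf1, at 55.3% against 38.1%, was lower in 4 of 4 pools. These shares too were picked after the values were seen and were not tested.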
